A study of Homo sapiens with 6 samples.

Results

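The BCL2 family decides whether the outer membrane of the mitochondrion stays intact, and 10 of its genes were followed here in HT-1080 fibrosarcoma cells exposed to an IRAK4 inhibitor. The members were taken by gene symbol from a table of 20683 genes, and all 10 were listed and passed the filter on low counts, which kept 11216 genes. They comprise 4 anti-apoptotic genes (BCL2, BCL2L1, BCL2L2 and MCL1), 1 effector gene (BAK1) and 5 genes of BH3-only proteins (BCL2L11, BMF, BBC3, PMAIP1 and BID). HT-1080 is an established human fibrosarcoma line. Cells were grown in dishes, and one group of 3 libraries comes from cells that received the IRAK4 inhibitor SLV-8472-01 for 24 h, labelled as 5 mM; whether that unit is right was not checkable from the sources. The other group of 3 libraries comes from cells given 0.1% DMSO for the same 24 h. No DMSO percentage is recorded for the inhibitor libraries. The series calls the 3 libraries of a group biological replicates, and the labels name no genetic change in either group.

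Anti-apoptotic BCL2 proteins hold the effectors BAK and BAX and the BH3-only proteins in inactive complexes. BH3-only proteins are the stress sensors of the family: when one accumulates, it occupies the groove of the anti-apoptotic proteins or engages an effector directly, and freed BAK or BAX then forms pores through which cytochrome c leaves the mitochondrion. Much of the control of BH3-only proteins is transcriptional, with the stress factors ATF4 and CHOP among the known inducers of PUMA (gene BBC3) and NOXA (gene PMAIP1). IRAK4 is the kinase that passes signals from Toll-like and interleukin-1 receptors to NF-kB, whose known targets include BCL2L1. Only RNA was measured here, and none of the proteins or their complexes.

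Library totals lay between 9162281 and 13184553 counts. The DMSO libraries were more spread than the inhibitor libraries. Within the inhibitor group, 2 libraries differed by a median of at most 0.13 on the log2 scale without regard to sign. DMSO 1 differed from DMSO 2 by 0.156, while DMSO 3 differed from DMSO 1 by 0.317 and from DMSO 2 by 0.248. Of 7 mesenchymal marker genes, VIM was at a mean of 5839 CPM (counts scaled to the size of the library) in DMSO and 6221 CPM under the inhibitor. In the same order, SPARC was at 1967.1 and 1723.9 CPM and LGALS1 at 967.7 and 868.2 CPM. FN1 was at 299.6 and 234.4 CPM and TIMP1 at 296.6 and 301.1 CPM. CD44 was at 10.1 and 9.81 CPM, and S100A4 at 3.1 and 2.93 CPM. The 7 summed to between 8260 and 10300 CPM in DMSO and between 9130 and 9530 CPM under the inhibitor. Of 6 epithelial and 6 blood cell marker genes, none exceeded 3 counts in any library. Summed over the list, epithelial markers lay between 0.245 and 0.416 CPM under the inhibitor and between 0 and 0.235 CPM in DMSO, and blood cell markers between 0 and 0.327 CPM and between 0 and 0.234 CPM.

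The windows around the transcription starts of the 2 genes that passed the test, PMAIP1 and BBC3, are shown first. Whether any motif in them bears on the levels of these genes was not tested. Each window holds 250 bases before and 50 bases after a gene start of RefSeq on GRCh38.p14, written 5′ to 3′ on the strand of the gene. Capitals mark matches to the searched motifs on either strand. The PMAIP1 window is chr18:59899746-59900045 on the plus strand and the BBC3 window is chr19:47232618-47232917 on the minus strand.
PMAIP1: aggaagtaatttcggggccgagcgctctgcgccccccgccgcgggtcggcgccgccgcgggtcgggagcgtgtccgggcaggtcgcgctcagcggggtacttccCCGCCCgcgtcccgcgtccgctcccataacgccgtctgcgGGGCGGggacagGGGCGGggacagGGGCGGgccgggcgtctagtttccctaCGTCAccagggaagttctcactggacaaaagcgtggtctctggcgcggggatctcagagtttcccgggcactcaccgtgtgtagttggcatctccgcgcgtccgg
BBC3: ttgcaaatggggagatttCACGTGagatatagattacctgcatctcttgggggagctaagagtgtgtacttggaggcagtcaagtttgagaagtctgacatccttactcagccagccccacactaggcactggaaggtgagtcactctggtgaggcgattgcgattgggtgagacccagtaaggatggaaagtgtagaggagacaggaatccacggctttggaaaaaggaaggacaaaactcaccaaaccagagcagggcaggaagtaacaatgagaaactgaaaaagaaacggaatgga
The PMAIP1 window held 71.3% G and C, with 4 GC boxes (GGGCGG) and 1 core of the cyclic AMP response element (TGACG, on the reverse strand, 55 bases before the start), the element that factors of the CREB and ATF families bind. The BBC3 window held 48% G and C and 1 E-box (CACGTG, 232 bases before the start), the element of MYC and related factors. Over all 35116 windows of the same length, 45% held a GC box, 24.6% this core and 7.26% an E-box. Among the other members, windows of BCL2, BCL2L1 and BMF also held the core, those of BCL2L1, BAK1, BCL2L11, BMF and BID a GC box, and those of BID an E-box. Neither window held the full element (TGACGTCA, in 1.85% of all windows), the C/EBP-ATF response element (TGATGNAA, 3.62%) or the EGR1 site (GCGTGGGCG, 0.795%), which says only that these letters are not in these windows. The RefSeq table held 14 windows of 8 of the 10 members, with 1 each for PMAIP1 and BBC3, and starts outside this table were not searched.

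The comparison asked which of these transcripts differed after 24 h with the inhibitor. PMAIP1 and BBC3, both BH3-only genes, fell to similar degrees: PMAIP1 fell by 49.5% and BBC3 fell by 50.8%. BMF, another BH3-only gene, had a difference of similar size that did not pass the test. MCL1 was lower by a smaller margin that did not pass either, and the values of BCL2, BCL2L1, BCL2L2, BAK1, BCL2L11 and BID overlapped between the groups. By edgeR's quasi-likelihood test with Benjamini-Hochberg adjustment over all tested genes, 2 of 10 members passed at an adjusted p under 0.05, against 3.87% of all tested genes; both were lower, against 1.92%. None was higher, against 1.95% of all tested genes; at an unadjusted p under 0.05, 4 members were lower and again 0 higher, against 9.23% and 10.3% of all tested genes. DESeq2 and limma-voom each called the same 2 lower and 0 higher. Of all 11216 tested genes, DESeq2 called 305 lower and 289 higher, and limma-voom 216 lower and 228 higher. The median log2 fold change was -0.138 over the members and -0.004 over all tested genes. In 4 of 10 members all inhibitor values lay below all DMSO values, as in 11.8% of all tested genes, and in none did they lie above, as in 13.7%. In RNA from all cells of a sample, fewer cells with a transcript and less of it per cell cannot be told apart.

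**Figure D1:**
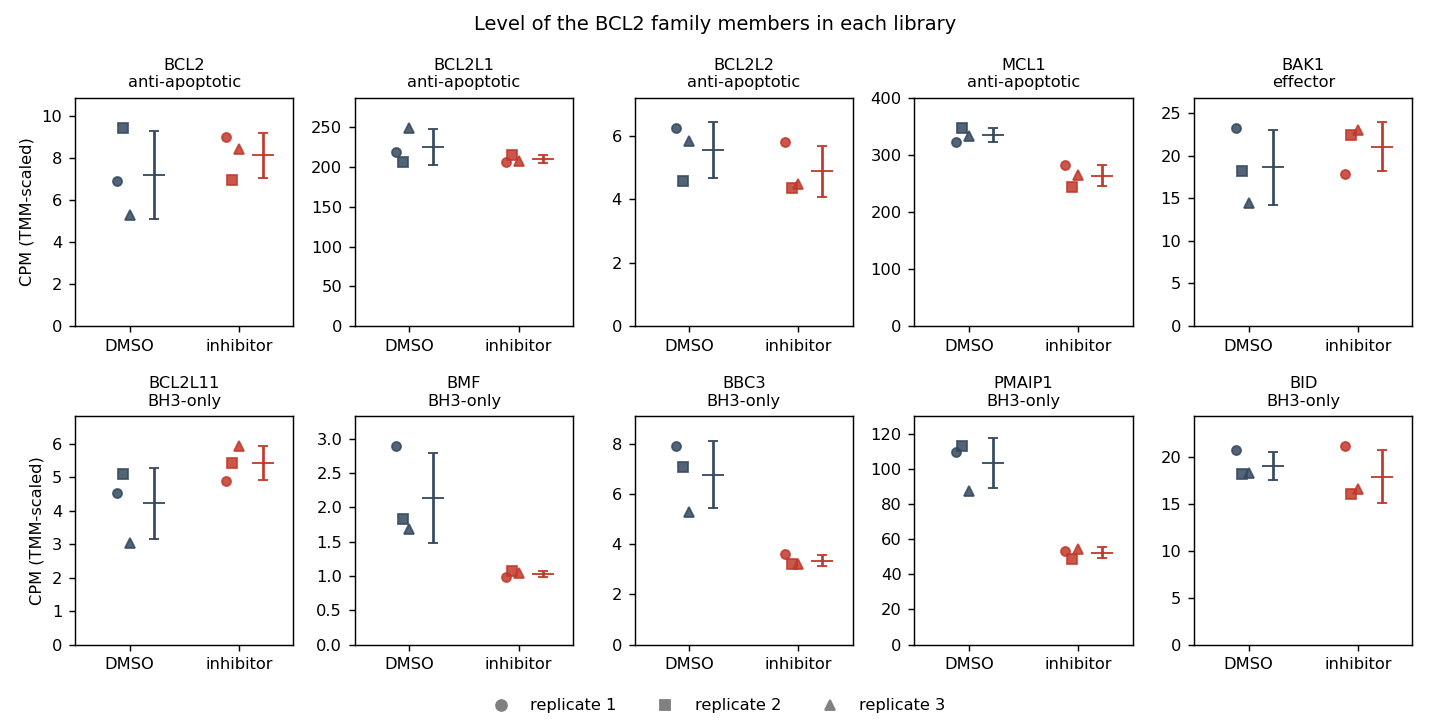
Level of each BCL2 family member (CPM, library-scaled, vertical axis from 0) in the 3 DMSO and 3 inhibitor libraries, with symbols for the replicate numbers and the group mean and SD beside the points. PMAIP1, BBC3, BMF and MCL1 show no overlap between the groups, and in PMAIP1, BBC3 and BMF the DMSO points spread more widely than the inhibitor points.

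PMAIP1 encodes NOXA, a small BH3-only protein that binds MCL1 in preference to other partners and promotes its degradation. It stood at 53.4, 48.8 and 54.8 CPM in inhibitor 1 to 3 and at 110, 113.2 and 87.4 CPM in DMSO 1 to 3. All inhibitor libraries lay well below the lowest DMSO library, and the lowest DMSO value was that of DMSO 3. The means were 52.4 ± 3.12 and 103.5 ± 14.1 CPM (SD, n = 3 each), or -0.99 as a log2 fold change, with SE 0.134 and a 95% interval of -1.27 to -0.70 (edgeR adjusted p = 0.000989). By p-value PMAIP1 ranked 43 among the 11216 tested genes. It was called without any 1 of the 6 libraries, at log2 fold changes between -1.11 and -0.92.

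BBC3 encodes PUMA, a BH3-only protein that binds all anti-apoptotic members. Its counts were low, a sum of 111 under the inhibitor and of 241 in DMSO. The levels were 3.59, 3.21 and 3.22 CPM in inhibitor 1 to 3 and 7.9, 7.08 and 5.29 CPM in DMSO 1 to 3. Again the groups did not overlap, and DMSO 3 was the lowest of the controls. From 6.76 ± 1.33 to 3.34 ± 0.218 CPM (SD, n = 3 each), BBC3 fell by 1.02 in log2 terms (95% interval -1.48 to -0.57, SE 0.212, edgeR adjusted p = 0.0159). The ratio of summed counts was 0.485, with an exact 95% interval of 0.384 to 0.609 that covers counting error only. The call depended on single libraries: the edgeR adjusted p was 0.0737, 0.109 and 0.0826 without inhibitor 1, 2 and 3 and 0.0828 without DMSO 2, at log2 fold changes between -1.08 and -0.99, and it was 0.039 without DMSO 1 and 0.000142 without DMSO 3.

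BMF encodes a BH3-only protein that is held at the actin-bound motor complex until it is released. It had 10 to 12 counts in each inhibitor library and 15 to 37 in each DMSO library. These correspond to 0.98, 1.07 and 1.04 CPM in inhibitor 1 to 3 and to 2.89, 1.83 and 1.69 CPM in DMSO 1 to 3. The groups did not overlap, and DMSO 1 alone stood far above the other controls. The log2 fold change was -1.07 (SE 0.329), close to that of BBC3 and PMAIP1, with a 95% interval of -1.77 to -0.36 and an edgeR adjusted p = 0.0871. Without DMSO 3 it was -1.20 (edgeR adjusted p = 0.0157), in a fit that called 21.9% of all tested genes. Without DMSO 1 it was -0.78 (edgeR adjusted p = 0.28).

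BCL2L11 encodes BIM, a BH3-only protein that binds all anti-apoptotic members, can activate BAX and BAK, and is marked for degradation by ERK. Its levels were 4.9, 5.44 and 5.93 CPM in inhibitor 1 to 3 and 4.54, 5.1 and 3.04 CPM in DMSO 1 to 3. The ranges overlapped, with DMSO 3 lowest. The fitted difference was 0.33 in log2 (SE 0.22, edgeR adjusted p = 0.443), with an interval of -0.14 to 0.80 that holds anything from a 0.905-fold to a 1.74-fold level. Without DMSO 3 it was 0.15.

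BID, which caspase-8 cleaves to link death receptors to the mitochondrion, was at 21.1, 16 and 16.5 CPM in inhibitor 1 to 3 and at 20.7, 18.1 and 18.2 CPM in DMSO 1 to 3. Each group had 1 library, replicate 1, above the other two. The fitted log2 difference was -0.09 (SE 0.154, edgeR adjusted p = 0.808), with an interval of -0.42 to 0.24. A halving of BID or BCL2L11 such as that of PMAIP1 therefore lies outside these intervals.

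**Figure D2:**
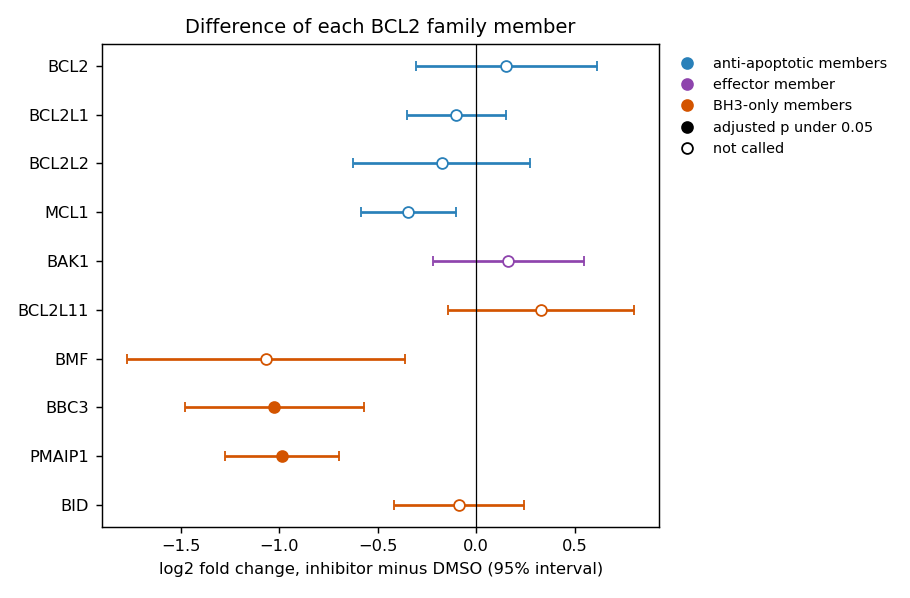
Log2 fold change of each BCL2 family member (inhibitor minus DMSO, horizontal axis) with its 95% interval from the edgeR fit, unadjusted for the number of genes, coloured by class. Filled points (BBC3 and PMAIP1) passed an adjusted p under 0.05; the intervals of MCL1 and BMF also lie below 0 but these genes did not pass after adjustment.

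None of the 4 anti-apoptotic genes passed in either direction by edgeR, DESeq2 or limma-voom without quality weights. By edgeR 3.87% of all tested genes passed, so a count of 0 among 4 says little about this class. With quality weights, limma-voom called MCL1 lower (limma-voom adjusted p = 0.00345), in a fit that called 2606 of 11216 genes. MCL1, whose protein is short-lived and is the main partner of NOXA, came nearest and was the single one of the 4 with an unadjusted edgeR p under 0.05. MCL1 was at 281.7, 244.4 and 264.8 CPM in inhibitor 1 to 3 and at 323.2, 348 and 333.1 CPM in DMSO 1 to 3. The groups did not overlap. The fit gave MCL1 a difference of -0.34 in log2 (SE 0.112, edgeR adjusted p = 0.106), a level 21.2% lower, with a 95% interval of -0.59 to -0.10. Without DMSO 3, MCL1 passed at nearly the same size, -0.36 (SE 0.0982, edgeR adjusted p = 0.00748), in a fit that called 21.9% of all tested genes. MCL1 did not pass with any other single library left out (edgeR adjusted p between 0.102 and 0.4).

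BCL2L1, whose long form is the anti-apoptotic BCL-XL and whose short splice form promotes death, was at 206.7, 215.4 and 207.2 CPM in inhibitor 1 to 3 and at 219.5, 206 and 249.5 CPM in DMSO 1 to 3. The inhibitor values lay close together and inside or at the edge of the DMSO range. The log2 fold change was -0.10 (SE 0.117, edgeR adjusted p = 0.693), with an interval of -0.35 to 0.15, so that changes beyond 0.784-fold and 1.11-fold lie outside it. The part of the transcript that each panel amplicon reads is not stated in the labels, so the splice forms of BCL2L1, MCL1 or BCL2L11 were not separated.

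BCL2, the founding anti-apoptotic gene of the family, was at 8.98, 6.95 and 8.42 CPM in inhibitor 1 to 3 and at 6.88, 9.44 and 5.29 CPM in DMSO 1 to 3. The inhibitor range lay within that of the controls. The fitted difference was 0.15 in log2 (SE 0.214, edgeR adjusted p = 0.751), and it was -0.02 without DMSO 3, so no direction can be given. BCL2L2, which encodes BCL-W, was at 5.8, 4.37 and 4.47 CPM in inhibitor 1 to 3 and at 6.26, 4.57 and 5.85 CPM in DMSO 1 to 3, a log2 difference of -0.18 (SE 0.21, edgeR adjusted p = 0.702). The intervals of these 2 genes, -0.31 to 0.61 and -0.63 to 0.27, are wider than that of BCL2L1.

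BAK1 encodes the effector BAK, which sits in the outer mitochondrial membrane and is restrained mainly by MCL1 and BCL-XL. It was at 17.8, 22.4 and 23 CPM in inhibitor 1 to 3 and at 23.3, 18.2 and 14.5 CPM in DMSO 1 to 3. The groups overlapped fully, and the spread of the controls came from a high DMSO 1 and a low DMSO 3. BAK1 had a log2 difference of 0.16 (SE 0.179, edgeR adjusted p = 0.672, 95% interval -0.22 to 0.55), and without DMSO 3 it was 0.00, to 2 decimals.

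Since NOXA acts on MCL1, the counts of the 2 genes were also set against each other within each library, where library scaling cancels. This ratio was chosen after the values had been seen and is given as a description. PMAIP1 had 0.19, 0.2 and 0.207 counts per MCL1 count in inhibitor 1 to 3 and 0.341, 0.325 and 0.262 in DMSO 1 to 3. All 3 inhibitor ratios lay below the lowest DMSO ratio. PMAIP1 had already been called lower and by more than MCL1 differed, so this separation adds no support. The 95% counting intervals of inhibitor 3 (0.188 to 0.227) and DMSO 3 (0.242 to 0.284) leave out the spread between libraries. The ratio carries the amplification of both amplicons and is no ratio of molecules.

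**Figure D3:**
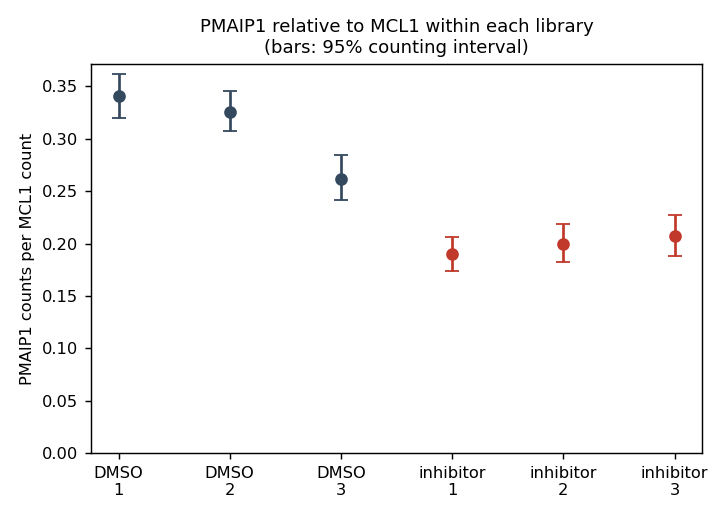
PMAIP1 counts divided by MCL1 counts (vertical axis, from 0) in each of the 6 libraries, with exact 95% intervals for counting error only. The inhibitor libraries lie at 0.19 to 0.207 and the DMSO libraries at 0.262 to 0.341.

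The members differed in how far their values rested on single libraries. BCL2, BCL2L11, BAK1, BBC3, BMF and PMAIP1 had their lowest control value in DMSO 3 and BCL2L1 its highest, although for BMF DMSO 3 lay beside DMSO 2. Over 9189 genes, which are not independent, Spearman's rho of transcript GC content with the deviation from the DMSO mean was -0.484 in DMSO 3 and 0.526 in DMSO 1, so that GC-rich genes tended to be low in DMSO 3. The members did not all follow that trend: PMAIP1, BCL2 and BCL2L11, with GC contents of 41.4%, 45.6% and 45.7%, were low in DMSO 3 as was BBC3 with 64.4%, and BCL2L1 with 56.6% was high. With the GC trend of each library removed, BBC3 and PMAIP1 were still called, at -0.93 (edgeR adjusted p = 0.00976) and -1.04 (edgeR adjusted p = 0.000787). Without DMSO 3, 4 members were lower (PMAIP1, BBC3, BMF and MCL1) and 0 higher, in a fit that called 21.9% of all tested genes, 11.1% lower and 10.8% higher.

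**Figure D4:**
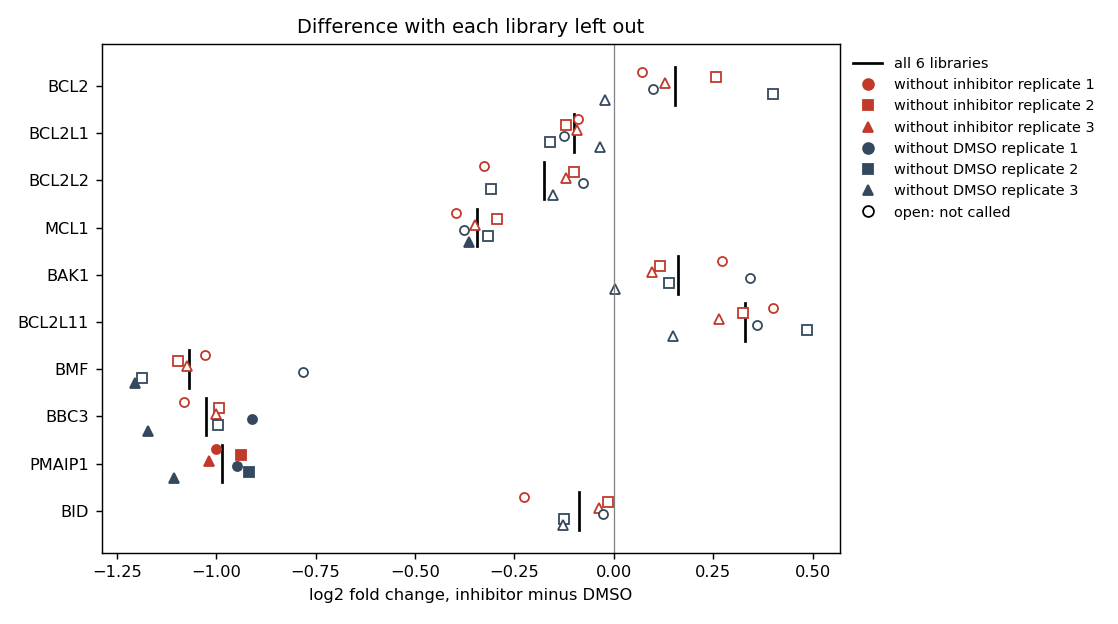
Log2 fold change of each member (inhibitor minus DMSO, horizontal axis) with all 6 libraries (black bar) and with each library left out in turn (symbols; filled where the edgeR adjusted p was under 0.05). PMAIP1 is filled throughout, BBC3 is open in 4 settings, and BCL2 crosses 0 without DMSO 3.

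Of 14 other genes of the family, 9 could be tested. None of the 9 passed by edgeR in either direction, against 3.87% of all tested genes. At an unadjusted p under 0.05 there were 2, both lower (9.23% of all tested genes were). DESeq2 called 1 of the 9 lower, BAX, against 305 of all 11216 tested genes, and limma-voom called 0. BAX, the effector that moves from the cytosol to the mitochondrion, was at 158.8, 165 and 164.2 CPM in inhibitor 1 to 3 and at 254.5, 203.1 and 200.5 CPM in DMSO 1 to 3. The groups did not overlap, and DMSO 1 was the highest. The log2 fold change was -0.43 (SE 0.125, edgeR adjusted p = 0.0726). Without DMSO 3, 2 of the 9 genes were lower and 1 higher, in a fit that called 21.9% of all tested genes. BAX was then at -0.51 (edgeR adjusted p = 0.000605), BAD at -0.40 (edgeR adjusted p = 0.0118) and BNIP3 at 0.475 (edgeR adjusted p = 0.000414). With all 6 libraries BCL2A1, an anti-apoptotic NF-kB target, was at -0.39 (SE 0.171, edgeR adjusted p = 0.223), with overlapping groups. The median of the 9 was -0.034. The BH3-only gene BIK summed to 10 counts under the inhibitor and 3 in DMSO, and HRK to 0 and 1. BCL2L15 had 2 and 0 counts, and BCL2L10 and BCL2L14 had none, so differences in these 5 genes were not detectable at this depth.

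In a list of transcriptional regulators of these genes, 6 of 19 tested fell and none rose by edgeR, against 1.92% and 1.95% of all tested genes. At an unadjusted p under 0.05, 8 were lower and 1 higher, against 9.23% and 10.3%. The list was chosen with earlier results of these data known, so these shares are a description only. It also holds TRIB3, which is not a transcription factor gene. DESeq2 called 1 higher gene, ATF5, and limma-voom 0, against 289 and 228 of all 11216 tested genes called higher. The median log2 fold change of this list was -0.22. Of the 6, ATF4 encodes a stress-induced transcription factor. It went from 847.8 ± 29.2 CPM in DMSO to 492 ± 79.4 CPM (SD, n = 3 each), a difference of -0.79 in log2 (SE 0.126, edgeR adjusted p = 0.00347). Its target ATF3 went from 17.2 ± 1.55 to 3.5 ± 0.529 CPM, or -2.29 (SE 0.182, edgeR adjusted p = 1.48e-05). DDIT3, which encodes CHOP, summed to 72 counts in DMSO and 9 under the inhibitor, fitted at -2.89 in log2 (SE 0.455, edgeR adjusted p = 0.00301). TRIB3, a pseudokinase gene induced by ATF4 and CHOP, went from 382 ± 75.2 to 116.2 ± 4.64 CPM, or -1.72 (SE 0.143, edgeR adjusted p = 2.12e-05). All 4 genes had each inhibitor value below each DMSO value, as had 11.8% of all tested genes. They were named because they were called lower, so this separation adds no support. ATF5, another gene induced through ATF4 and CHOP, lay in the opposite direction, at 51.9, 63.3 and 61.9 CPM in inhibitor 1 to 3 and 47.9, 40 and 32.8 CPM in DMSO 1 to 3, a log2 difference of 0.55 (SE 0.152, edgeR adjusted p = 0.061); it is named after its values had been seen. The other two were CEBPB, a bZIP factor that pairs with ATF4, at -0.997 (SE 0.193, edgeR adjusted p = 0.0102), and MYC, which can raise BCL2L11 and PMAIP1, at -1.17 (SE 0.133, edgeR adjusted p = 0.000224). CEBPB was not called without inhibitor 1, 2 or 3 (edgeR adjusted p = 0.0559, 0.0713 and 0.0714), nor ATF4 without inhibitor 2 (0.0513). Whether the fall of any regulator bears on PMAIP1 or BBC3 was not tested, since all were measured at a single time in the same libraries.

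Of 17 tested genes whose products act on BCL2 family proteins after translation, PIM1 fell and none rose by edgeR. Of all tested genes, 1.92% fell and 1.95% rose. At an unadjusted p under 0.05, 3 of the 17 were higher and 2 lower, against 10.3% and 9.23% of all tested genes. DESeq2 and limma-voom each called PIM1 alone, against 305 and 216 of all 11216 tested genes called lower. PIM1 is a kinase that phosphorylates and inactivates BAD. It was at 38, 38.7 and 42.9 CPM in inhibitor 1 to 3 and at 71.4, 55 and 70.9 CPM in DMSO 1 to 3, without overlap. Its log2 difference was -0.72 (SE 0.138, edgeR adjusted p = 0.00945), and the call was lost without inhibitor 1 (edgeR adjusted p = 0.0903) or inhibitor 2 (0.0978). The median of this list was 0.08.

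Downstream of the pore, none of 21 tested genes of the mitochondrial caspase pathway passed by edgeR, against 3.87% of all tested genes. The median was 0.139. An unadjusted p under 0.05 was found for 6, all higher, against 10.3% of all tested genes higher. DESeq2 and limma-voom each called 2 higher, CYCS and CASP2, against 289 and 228 of all 11216 tested genes called higher. CYCS, the cytochrome c gene, was at 202.8, 216.9 and 198.9 CPM in inhibitor 1 to 3 and at 144.8, 167.3 and 139.1 CPM in DMSO 1 to 3, a log2 difference of 0.45 (SE 0.12, edgeR adjusted p = 0.0506). CASP2, a caspase gene that acts upstream of BID in some settings, was at 0.46 (SE 0.123, edgeR adjusted p = 0.0536). In both genes all inhibitor values lay above all DMSO values, as in 13.7% of all tested genes. Both adjusted p-values lie just outside the threshold. Without DMSO 3, 8 of 22 genes of this pathway were higher and 0 lower, in a fit that called 10.8% of all tested genes higher and 11.1% lower.

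In the death receptor pathway, which reaches the mitochondrion through BID, none of 11 tested genes passed by edgeR, against 3.87% of all tested genes. At an unadjusted p under 0.05, which 19.5% of all tested genes reached, there was 1, RIPK1. DESeq2 called RIPK1, among 289 of all 11216 tested genes called higher, and limma-voom did not. RIPK1, the kinase gene of the receptor complex, was at 36.9, 32.3 and 34.9 CPM in inhibitor 1 to 3 and at 25.2, 25 and 24.2 CPM in DMSO 1 to 3, a log2 difference of 0.48 (SE 0.128, edgeR adjusted p = 0.0509). The groups did not overlap. TNFRSF10B, the gene of the TRAIL receptor DR5, was at -0.23 (SE 0.145, edgeR adjusted p = 0.404). The median of this list was 0.113.

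**Figure D5:**
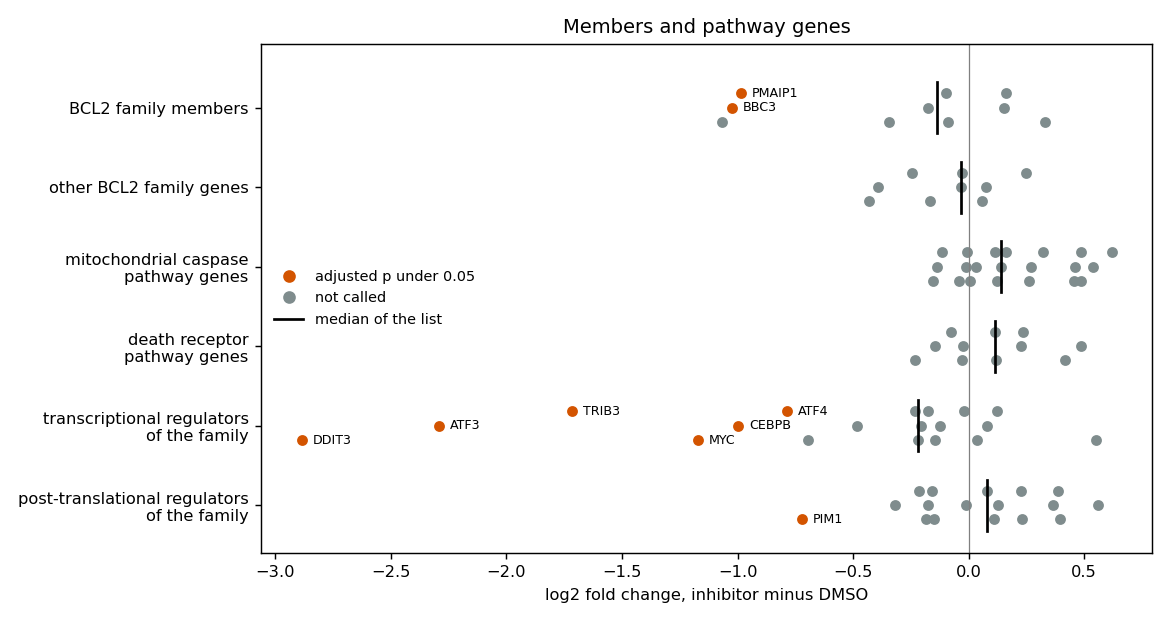
Log2 fold change (inhibitor minus DMSO, horizontal axis) of every tested BCL2 family member and of tested genes in 5 related lists, 1 point per gene, with the median of each list as a black bar. Orange points passed an edgeR adjusted p under 0.05. They lie below 0 in all cases, and 6 of them are in the list of transcriptional regulators, which was chosen with earlier results of these data known.

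The tested genes whose log2 CPM over the 6 libraries was most like that of each called member were named by Pearson correlation among 9064 genes with a mean of at least 5 CPM. All points share their libraries and the group difference, so these are descriptions. For PMAIP1 they were EIF4G3 (r = 0.996), NDUFS4 (r = 0.995) and ATP13A2 (r = 0.993), which encode a translation initiation factor, a complex I subunit and a lysosomal transporter. For BBC3 they were FAM84B (r = 0.997), TBC1D7 (r = 0.995) and ZFP36L1 (r = 0.994), the last of which encodes a protein that binds AU-rich RNA. The high r values follow from picking genes by correlation, while the sizes of their differences varied. ATP13A2 had a log2 fold change of -0.99 (SE 0.144) and ZFP36L1 of -1.09 (SE 0.155), both near those of the members, whereas EIF4G3 was at -0.27 (SE 0.114) and TBC1D7 at -0.28 (SE 0.137).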

How the data were processed

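The authors deposited raw counts per gene symbol, 1 file per library, without normalization, as the whole-number values show. Per the labels' protocols, libraries were made with the Ion AmpliSeq Transcriptome Human Gene Expression Panel, which reads each transcript through PCR amplicons. They were run on an Ion Torrent Proton. Amplification differences enter the counts, so levels were not tested between genes. The ratio of PMAIP1 to MCL1 and the marker levels set genes side by side as descriptions only. HTSeq, DESeq2 1.20.0 and the build hg19 appear in the submitters' processing notes, with no step assigned; no aligner is named in the sources. No molecular identifiers are named, so counting intervals cover counting error only.

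Counts were fitted with edgeR 4.0.16 in R 4.3.3 (filterByExpr, at least 10 counts and 15 in total, TMM scaling, quasi-likelihood test on an intercept and the group, Benjamini-Hochberg adjustment over 11216 genes, threshold 0.05). The SE is the absolute log2 fold change divided by the square root of F, and 95% intervals use the degrees of freedom of that test. CPM values carry the TMM scaling; 2 was the prior count for log2 CPM. Groups came from the sample titles. Alternatives were DESeq2 1.42.0, limma-voom (limma 3.58.1) with and without quality weights, other scaling and filters, a replicate block, a GC correction (local regression, span 0.5, GC from GENCODE transcripts for 98.9% of tested genes) and leaving out each library. All fits were run on simulated counts that held no GC trend and no deviating library. Such counts cannot show how the fits behave with the spread of these DMSO libraries.

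Members, gene lists and tests were chosen with earlier results of these data known. Named were all members, up to 6 called genes of each list or, where none was called, the 2 with the smallest p, untested family genes, and the 3 genes most alike to each called member. Where nothing shows separate cultures beyond the series' wording, p-values measure the spread between these libraries.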

Additional observations from a re-analysis of the deposited data

How the results depend on the processing

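PMAIP1 kept its direction and its call in all 15 alternatives, and BBC3 its direction in all 15 and its call in 11. BMF and MCL1 kept their direction and were also called with quality weights in limma-voom (-0.915 and -0.378). BCL2 reversed with quality weights (-0.087) and ran from -0.022 (without DMSO 3) to 0.401 leaving out 1 library. The count of lower members was 2 except with quality weights (4) and, leaving out 1 library, between 1 and 4; higher members stayed at 0 throughout. BMF dropped out of the test at a mean count of at least 50.

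Over all genes, 219 higher and 215 lower became 336 and 163 with library totals only, a higher share of 67.3% in place of 50.5%, 395 and 436 with no filter, 385 higher after GC correction, 1387 and 1219 with quality weights, and 38 to 1227 higher and 61 to 1269 lower leaving out 1 library. Library totals shifted the median log2 fold change of all genes to 0.0559.

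Other family genes had 1 higher and 2 lower with quality weights, 1 lower with no filter and 1 with DESeq2, and 0 to 1 higher and 0 to 2 lower leaving out 1 library. Mitochondrial caspase genes had 2 higher with library totals, 3 with no filter, 2 with DESeq2, 2 with limma-voom, 1 after GC correction, 8 with quality weights and 0 to 8 leaving out 1 library. Death receptor genes had 1 higher with library totals, no filter, DESeq2, GC correction and quality weights, and 0 to 1 leaving out 1 library. Transcriptional regulators had 1 higher with the same 5 settings and 0 to 1 higher leaving out 1 library. Post-translational regulators had 2 higher with quality weights and, leaving out 1 library, 0 to 2 higher and 0 to 2 lower. The cause of these shifts was not tested.

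Deviations from the group mean correlated at -0.041, -0.038 and -0.088 between libraries with the same replicate number in the titles. With 3 libraries per group and the GC trend in DMSO 1 and DMSO 3, these values cannot decide whether such libraries shared handling. With a replicate block, 327 genes were called in place of 434, and PMAIP1 (-0.978) and BBC3 (-1.014) were called. Depth limits BMF and the untested family genes.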
